A study of Homo sapiens with 4 samples.

Results

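The cytosolic ribosomal protein genes encode the protein part of the ribosome of the cytosol, and the occupancy of BAF45D at their ends was described here in neural stem cells and in the embryonic stem cells they came from. Members were the autosomal protein-coding genes whose symbols follow the RPL and RPS naming scheme, with RPLP0 to RPLP2 and RPSA added and the RPS6K kinase genes left out. The rule found 80 genes, 49 of the large subunit and 31 of the small subunit, of 19126 autosomal protein-coding genes in all. It used gene symbols and no measured value, although the members were chosen with earlier results of these data known. CUT&Tag with a rabbit antibody against BAF45D was performed on 2 NSC libraries and 2 ESC libraries, each from 100000 cells. In this assay the antibody tethers a transposase, which tags the DNA beside the bound protein. The NSC were spinal cord neural stem cells made from the H9 line by neural induction with LDN-193189, SB431542, CHIR-99021, FGF2, FGF8 and DAPT, then kept in maintenance medium and finally in medium with FGF2 and EGF. The ESC were undifferentiated H9 cells, an established human embryonic stem cell line, grown on Matrigel in mTeSR1. Both groups therefore derive from 1 cell line, and neither carried a genetic alteration named in the labels. The labels number the libraries but do not say that they came from separate cultures, so the spread between them may be technical.

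Ribosomal proteins fold onto ribosomal RNA to form a small subunit, which reads the mRNA, and a large subunit, which joins amino acids. The proteins are needed in matched amounts, and their genes are among the most highly transcribed in growing cells. Many mammalian ribosomal protein genes start transcription within a run of pyrimidines, the TCT initiator, and many carry small nucleolar RNA genes in their introns. BAF45D, the product of DPF2, is a subunit of the BAF complex, which uses ATP to move or evict nucleosomes and is needed in both pluripotent and neural cells.

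A gene was called in a library when a deposited peak overlapped a window reaching 1 kb to each side of the start or the end of the gene, here called a gene-end peak. The lists held 28887 and 23942 autosomal peaks in NSC1 and NSC2, against 4054 and 12159 in ESC1 and ESC2. The longer lists came from fewer tags, 5566407 in NSC1 and 5377831 in NSC2, against 20734829 and 18953543 in ESC1 and ESC2. Counts at equal list length are given beside the counts from the full lists, and the part of depth in them was not tested. The absence of a peak shows only that the signal stayed under the caller's threshold, not that the protein was absent. At gene ends, 5 of 6 neural stem cell markers (NES, SOX1, VIM, OLIG2 and NKX6-1, without PAX6) were called in each NSC library and 0 of 6 in each ESC library. Of 5 pluripotency markers, LIN28A alone was called in each NSC library, against LIN28A and L1TD1 in ESC1 and these with DNMT3B in ESC2; POU5F1 and NANOG were called in none. Of the markers of other cells the culture could hold, 1 of 3 neuronal genes, STMN2, was called in NSC1 and ESC2. The other neuronal genes, TUBB3 and ELAVL3, were called in no library. Of the neural crest markers 0 of 3 were called in any library, and of the mesoderm and endoderm markers 0 of 4.

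The promoters of 6 members are shown because they span the range of the result: RPL26 and RPS19 had peaks in all 4 libraries, RPL9 and RPS28 in both NSC libraries alone, and RPL11 and RPS21 had none. Each runs from 150 bases before the start site to 30 bases into the gene, 5′ to 3′ on the strand of the gene, from RefSeq on GRCh38.p14. Capitals mark the ETS motif CCGGAAG and the palindromic CG element CTCGCGA on either strand, and a TCT initiator (TCTTTC, also TCTTTT, also CCTTTC, also CCTTTT, on the strand of the gene) within 20 bases of the start.
RPL26 (chr17:8383164-8383343, minus strand): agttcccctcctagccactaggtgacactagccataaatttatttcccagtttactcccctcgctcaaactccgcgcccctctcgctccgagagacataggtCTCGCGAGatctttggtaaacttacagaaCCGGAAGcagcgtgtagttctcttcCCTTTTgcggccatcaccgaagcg
RPS19 (chr19:41860105-41860284, plus strand): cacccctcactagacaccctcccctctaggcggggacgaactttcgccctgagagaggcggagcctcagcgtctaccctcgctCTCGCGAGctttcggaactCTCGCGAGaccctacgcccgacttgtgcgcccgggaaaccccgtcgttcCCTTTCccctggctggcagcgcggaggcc
RPL9 (chr4:39458893-39459072, minus strand): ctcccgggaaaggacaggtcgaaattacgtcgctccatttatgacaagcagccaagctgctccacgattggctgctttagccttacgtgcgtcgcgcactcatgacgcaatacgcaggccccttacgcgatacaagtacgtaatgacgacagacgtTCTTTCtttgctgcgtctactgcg
RPS28 (chr19:8321346-8321525, plus strand): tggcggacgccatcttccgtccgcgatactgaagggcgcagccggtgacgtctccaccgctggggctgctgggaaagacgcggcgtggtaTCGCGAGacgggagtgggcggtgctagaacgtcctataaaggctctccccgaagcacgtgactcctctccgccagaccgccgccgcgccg
RPL11 (chr1:23691629-23691808, plus strand): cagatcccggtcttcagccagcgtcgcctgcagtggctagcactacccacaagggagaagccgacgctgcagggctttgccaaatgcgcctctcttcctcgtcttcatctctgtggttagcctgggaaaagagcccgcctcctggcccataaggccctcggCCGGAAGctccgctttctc
RPS21 (chr20:62386953-62387132, plus strand): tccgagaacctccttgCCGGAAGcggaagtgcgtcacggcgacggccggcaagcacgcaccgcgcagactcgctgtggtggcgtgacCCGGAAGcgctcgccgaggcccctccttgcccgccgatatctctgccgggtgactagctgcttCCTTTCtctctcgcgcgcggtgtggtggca

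BAF45D peaks stood at the ends of most ribosomal protein genes in NSC and of fewer in ESC. Of the 80 genes, 71 were called in NSC1 (88.8%, 95% Wilson interval 80.0 to 94.0) and 68 in NSC2 (85.0%, 75.6 to 91.2), against 11 in ESC1 (13.8%, 7.85 to 23) and 40 in ESC2 (50%, 39.3 to 60.7). The share over all autosomal protein-coding genes was 43.5% in NSC1, 38.7% in NSC2, 6.80% in ESC1 and 23.2% in ESC2. Each library thus called ribosomal protein genes more often than genes at large, and both NSC libraries lay above both ESC libraries. The intervals cover counting error only.

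The members averaged 86.9 ± 2.65% called in the NSC libraries and 31.9 ± 25.6% in the ESC libraries (SD, n = 2 each), a difference of 55.0 percentage points. The spread was wider between the ESC libraries than between the NSC libraries. The exact two-sided permutation test over libraries gave p = 0.333, the smallest value that 2 against 2 libraries allow. All other autosomal protein-coding genes averaged 40.9 ± 3.40% in the NSC libraries and 14.9 ± 11.5% in the ESC libraries, a difference of 26.0 points. Without ESC1 the difference at the members was 36.9 points, and without ESC2 it was 73.1 points.

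The gap between the cell types was smaller once the peak lists had equal length, and ESC2 then exceeded both NSC libraries. When every list was reduced to its 4054 strongest peaks, the length of the ESC1 list, 23 members were called in NSC1 (28.8%) and 22 in NSC2 (27.5%), against 11 in ESC1 (13.8%) and 24 in ESC2 (30%). The difference of the means was 6.25 points, and the exact permutation p was 1. The same reduction left 11.4% of all genes called in NSC1 and 10.9% in NSC2, against 6.80% in ESC1 and 13.2% in ESC2, so the share of members stayed above that of all genes in each library. Peaks of −log10 q of at least 5 kept lists of unequal length. With them the members were called at 76.3% and 61.3% in NSC1 and NSC2 against 7.50% and 31.3% in ESC1 and ESC2. All genes were then called at 30.8% and 26.2% in NSC1 and NSC2 against 3.36% and 15.4% in ESC1 and ESC2. Counted as distinct peaks, ribosomal protein genes held 85 peaks in NSC1 (0.294% of its list) and 80 in NSC2 (0.334%), against 11 in ESC1 (0.271%) and 46 in ESC2 (0.378%). By this share of the list the NSC libraries lay between the ESC libraries.

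**Figure D1:**
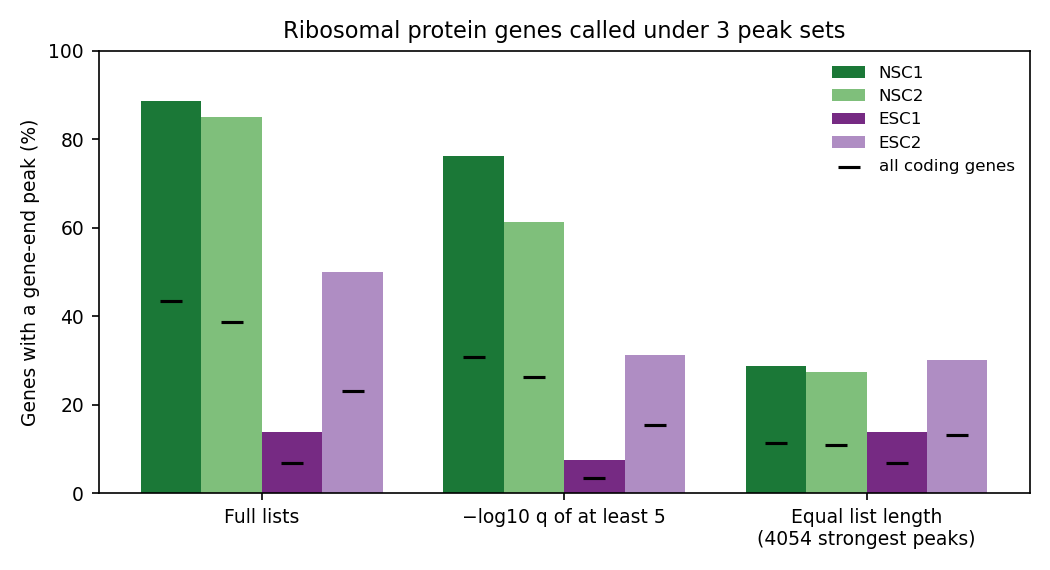
Percent of the 80 ribosomal protein genes with a gene-end peak (bars) in NSC1, NSC2, ESC1 and ESC2, under the full lists, under peaks of −log10 q of at least 5 and under the 4054 strongest peaks of each list, with the percent over all autosomal protein-coding genes as a black dash. Both NSC bars exceed both ESC bars under the first 2 peak sets, and ESC2 is highest, at 30%, once the lists have equal length.

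The subunits were close to each other in NSC2 and ESC2, and less so in NSC1 and ESC1. Large subunit genes were called at 41 and 42 of 49 in NSC1 and NSC2, against 3 and 25 of 49 in ESC1 and ESC2. Small subunit genes were called at 30 and 26 of 31 in NSC1 and NSC2, against 8 and 15 of 31 in ESC1 and ESC2. In percent, the large subunit averaged 84.7 ± 1.44 in the NSC libraries and 28.6 ± 31.7 in the ESC libraries, and the small subunit 90.3 ± 9.12 in the NSC libraries and 37.1 ± 16 in the ESC libraries (SD, n = 2 each). The small subunit was called more often in NSC1 (96.8% against 83.7%) and ESC1 (25.8% against 6.12%), and the large subunit slightly more often in NSC2 and ESC2. The intervals of the subunits overlap in every library, but they cover counting error only. Genes are not replicates, and the difference between the subunits was not tested.

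Other genes of protein synthesis and turnover were called at lower or similar rates. Mitochondrial ribosomal protein genes, which build the separate ribosome of mitochondria, were called at 55 and 44 of 77 in NSC1 and NSC2, against 10 and 30 in ESC1 and ESC2. Proteasome subunit genes, whose products degrade proteins, were called at 32 and 24 of 38 in the NSC libraries and 6 and 17 in the ESC libraries. Translation initiation factor genes were called at 37 and 31 of 44 in NSC1 and NSC2, against 5 and 22 in ESC1 and ESC2. The means in NSC and ESC were 64.3 ± 10.1% and 26.0 ± 18.4% for the mitochondrial ribosome, 73.7 ± 14.9% and 30.3 ± 20.5% for the proteasome, and 77.3 ± 9.64% and 30.7 ± 27.3% for initiation factors (SD, n = 2 each). All 3 lists lay above genes at large in every library. In NSC2 the cytosolic ribosomal protein genes exceeded each of them, while in ESC2 initiation factors, at 22 of 44, were called at the same rate.

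Smaller lists of the same machinery gave similar counts. Elongation and termination factor genes were called at 7 of 9 in both NSC libraries, against 0 in ESC1 and 5 in ESC2. RNA polymerase I subunit genes, for the enzyme that transcribes the large ribosomal RNA precursor, were called at 7 and 6 of 8 in NSC1 and NSC2, against 0 and 4 in ESC1 and ESC2. Ribosome biogenesis factor genes, which include NCL, NPM1 and FBL in the list, were called at 21 and 19 of 24 in NSC1 and NSC2, against 3 and 10 in ESC1 and ESC2. The shares over all genes were 43.5% and 38.7% in NSC1 and NSC2, against 6.80% and 23.2% in ESC1 and ESC2.

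**Figure D2:**
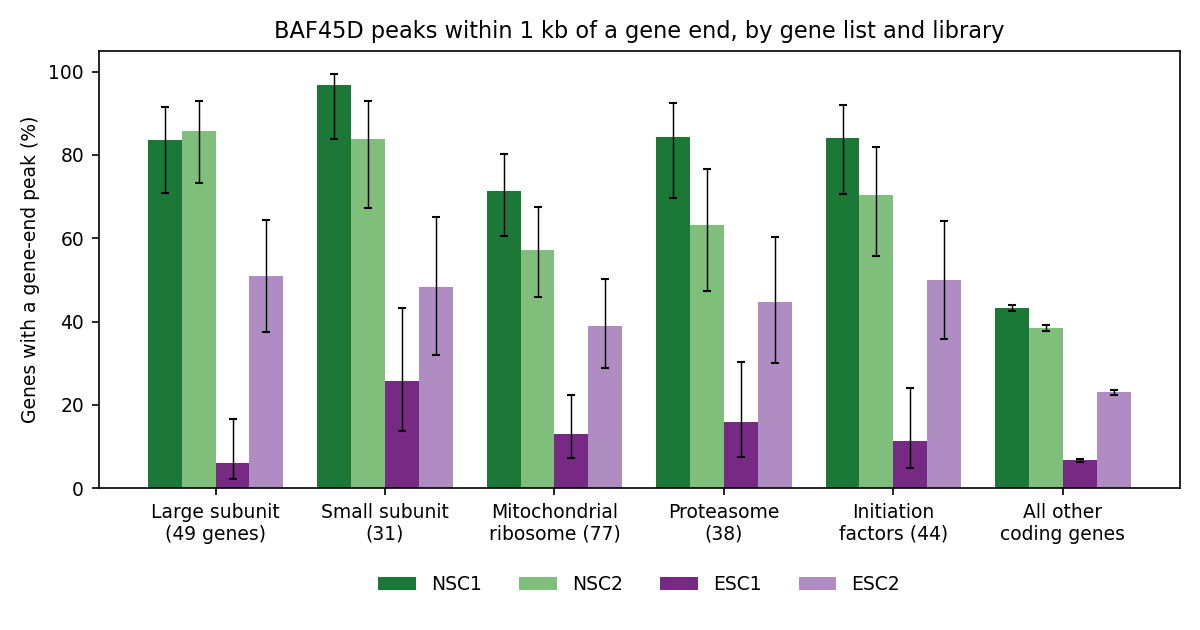
Percent of genes with a BAF45D peak within 1 kb of a gene end (vertical axis) for 6 gene groups, with 1 bar per library in the order NSC1, NSC2, ESC1, ESC2 and 95% Wilson intervals of counting error. In NSC2 the large subunit (85.7%) and the small subunit (83.9%) stand above the other groups; ESC1 is the lowest bar of every group.

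In the full lists, which libraries shared a call was nested rather than divided between the cell types. A peak in at least 1 library was found at 75 of 80 members, and 64 had one in both NSC libraries. Both NSC libraries and no ESC library called 25 members (31.3%, against 16.4% of all genes), here called NSC-only. Both NSC libraries and ESC2 called 28 (35.0%, against 12.7%). All 4 libraries called 11 (13.8%, against 6.01%). No member was called in both ESC libraries alone (against 0.251%) or in both NSC libraries and ESC1 (against 0.0627%).

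A single NSC library called 10 members (12.5%, against 9.64%), 1 member, RPL34, had another combination (against 4.45%), and 5 had no gene-end peak (6.25%, against 50.5%). All 11 members called in ESC1 were called in the other 3 libraries, as were 1150 of 1300 genes in all (88.5%). Of the 40 members called in ESC2, 39 were called in both NSC libraries (97.5%), against 3577 of 4430 genes in all (80.7%). The NSC-only class held 53 members without ESC2, and 25 without ESC1, so its size rested on ESC2. Without ESC2 it takes in the genes called in both NSC libraries and ESC2, which were 12.7% of all genes. All genes thus shift the same way, and this is no trait of the members. At equal list length it held 7 members (8.75%, against 2.19% of all genes), 6 of them among the 25. The 7 were RPL7, RPL9, RPL35, RPLP2, RPS2, RPS16 and RPS28. At that length 2 members, RPS27A and RPL4, were called in both ESC libraries alone (2.5%, against 1.27%).

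**Figure D3:**
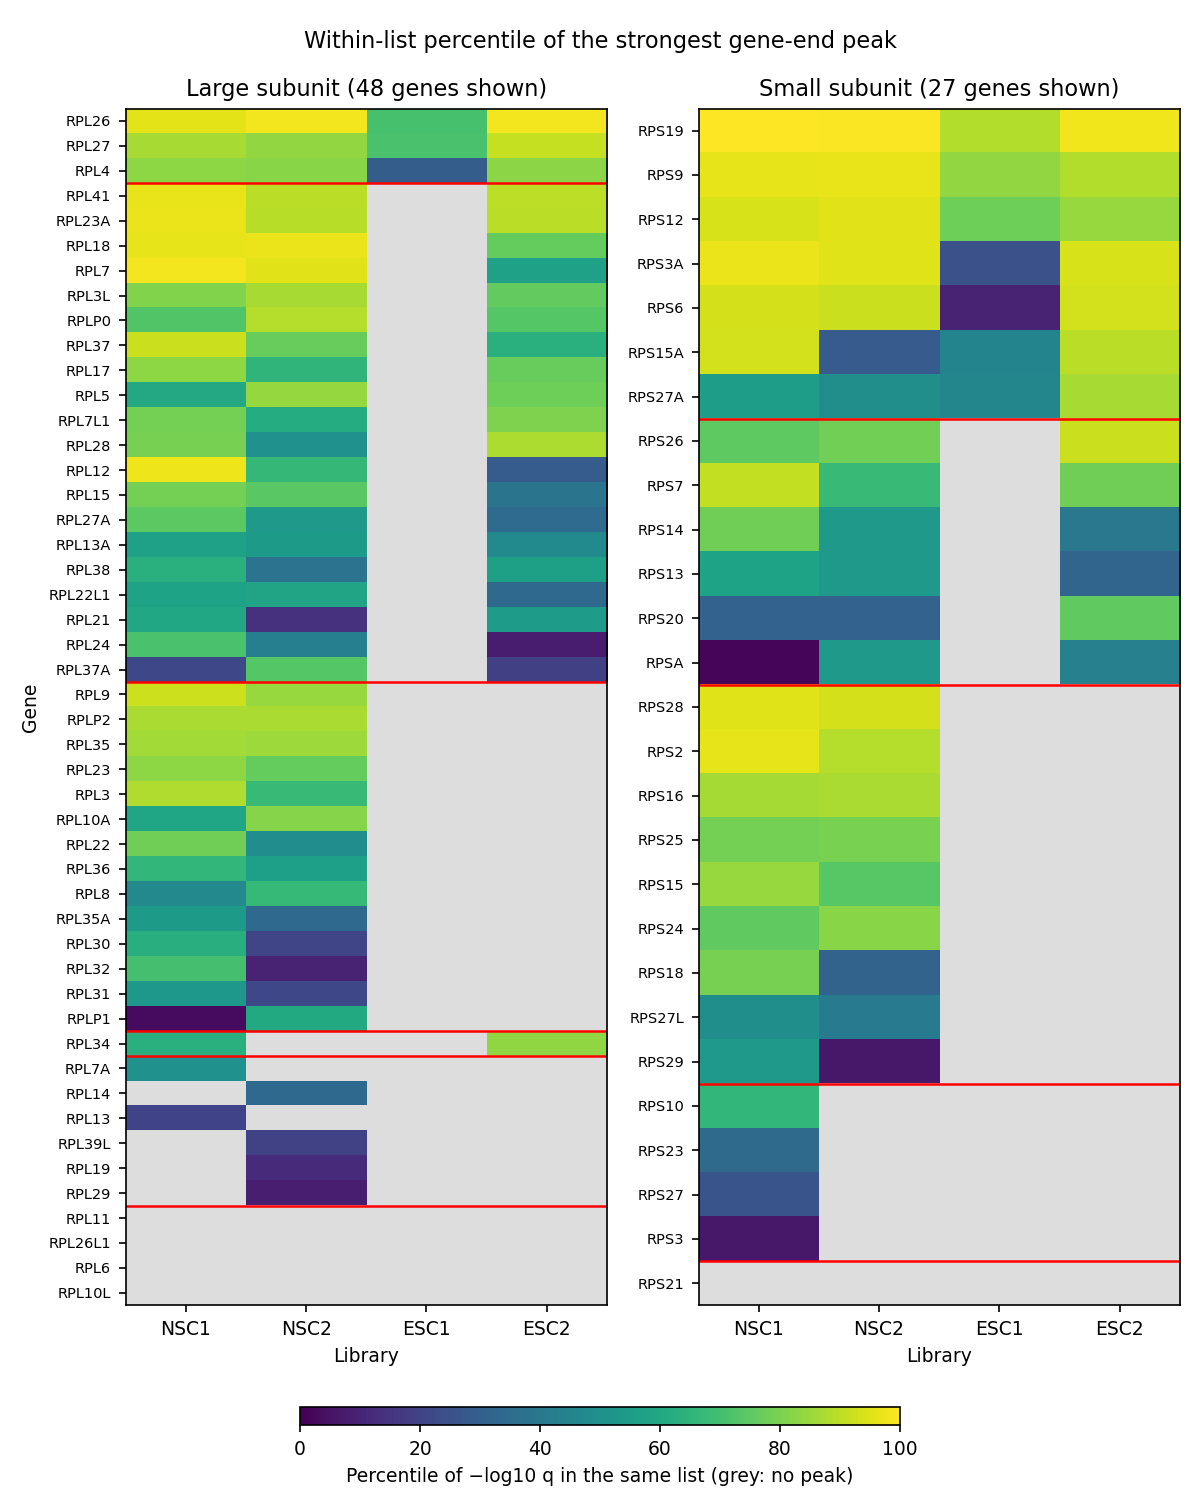
Percentile of the strongest gene-end peak among the −log10 q values of its own list (colour, 0 to 100) for 48 large subunit genes (left) and 27 small subunit genes (right) in NSC1, NSC2, ESC1 and ESC2; grey marks no peak and red lines part the sets of libraries that called the gene. RPS19 stands at the 99.8th percentile in NSC1, and the ESC1 column is coloured for 3 large and 7 small subunit genes.

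The 11 genes called in all 4 libraries were mostly of the small subunit, with 8 small and 3 large subunit genes. The values given here are the −log10 q of the strongest peak at each gene, which the authors' peak caller set within each list and which share no scale across lists. Among the members called, the median lay at the 78.2 and 67.1 percentile of the list in NSC1 and NSC2, against 71.0 and 76.6 in ESC1 and ESC2. For all called genes it was 68.8 and 66.3 in NSC1 and NSC2, against 64.1 and 71.4 in ESC1 and ESC2. Called members thus sat a little above other called genes in each list, by the least in NSC2. At or above the 90th percentile of each list were 18 of the called members in NSC1 (25.4%) and 10 in NSC2 (14.7%), against 1 in ESC1 (9.09%) and 8 in ESC2 (20.0%). For all called genes those shares were 19.6% in NSC1 and 18.1% in NSC2, against 6.92% in ESC1 and 18.2% in ESC2, so NSC2 fell below and the others above.

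RPS19, a small subunit protein mutated in Diamond-Blackfan anaemia, had a −log10 q of 61.4 in NSC1 and 46.1 in NSC2, against 12.3 in ESC1 and 35.4 in ESC2. Its summits lay at -128 and -123 bp from the start in NSC1 and NSC2, within the sequence printed above, and at -562 and -531 bp in ESC1 and ESC2. The intervals of all 4 libraries overlapped, at chr19:41859534-41860386 in NSC1 and chr19:41859539-41860319 in NSC2, against chr19:41859497-41860212 in ESC1 and chr19:41859458-41860307 in ESC2, so it was the highest point inside a shared interval that differed.

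Of the other small subunit genes described here from that set, RPS9 and RPS12 ranked high in every list, at or above the 78.0 percentile, while RPS3A, RPS6, RPS15A and RPS27A varied in rank between lists. RPS9 had 26.1 and 24.8 in NSC1 and NSC2 against 9.67 and 13.6 in ESC1 and ESC2. RPS12 had 20.7 and 22.5 in the NSC libraries against 7.41 and 11.1 in the ESC libraries. RPS3A had 27.7 and 21.4 in NSC1 and NSC2 against 2.45 and 20.4 in ESC1 and ESC2. The ESC1 peaks of RPS3A and of RPS6, the small subunit protein phosphorylated by S6 kinases, stood at the 24.9 and 10.1 percentile of that list, while their ESC2 peaks stood at the 94.1 and 93.1 percentile. RPS6 had 20.3 and 17.2 in NSC1 and NSC2 against 1.76 and 18.7 in ESC1 and ESC2, and its ESC1 value was the lowest of the members called there. RPS27A, made as a fusion with ubiquitin, had 5.98 and 5.14 in the NSC libraries against 3.51 and 12.8 in the ESC libraries. Its summits lay 84 and 236 bp from the start of its neighbour CLHC1 in NSC1 and NSC2, and 278 and 283 bp in ESC1 and ESC2. Each was nearer to that start than to the start of RPS27A. RPS15A had 19.8 and 3.59 in NSC1 and NSC2 against 3.45 and 14.5 in ESC1 and ESC2, at percentiles of 93.3 and 28.6 in the NSC libraries against 45.0 and 89.6 in the ESC libraries, so its rank differed widely within each cell type; the peak also overlaps the end window of ARL6IP1.

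Of the large subunit, RPL26, RPL27 and RPL4 were called in all 4 libraries. RPL26, which also binds p53 mRNA, had a −log10 q of 24.8 and 30.3 in NSC1 and NSC2, against 5.80 and 43.7 in ESC1 and ESC2. It was the strongest large subunit gene in ESC2, and its summits lay at -94 and -101 bp from the start in the NSC libraries and at -140 and -154 bp in the ESC libraries. RPL27 had 13.9 and 11.8 in NSC1 and NSC2 against 5.83 and 16.3 in ESC1 and ESC2. RPL4, which lines part of the exit tunnel of the ribosome, had 12 and 11 in the NSC libraries against 2.69 and 10.2 in the ESC libraries. The RPL4 summits lay beyond the 3′ end of the gene, 115 and 50 bp from the start of its neighbour SNAPC5 in NSC1 and NSC2 and 13 and 125 bp from it in ESC1 and ESC2, nearer to that start than to the start of RPL4.

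The 28 genes called in both NSC libraries and in ESC2 comprised 21 of the large and 7 of the small subunit. Among large subunit genes with the highest mean percentile, RPL41 had a −log10 q of 26.6 and 15.1 in NSC1 and NSC2 against 15.1 in ESC2, with summits 102 to 127 bp from the start of ZC3H10. RPL23A, at the mouth of the exit tunnel, had 28.2 and 14.6 in the NSC libraries against 14.7 in ESC2. RPL18 had 25.4 and 26.1 in NSC1 and NSC2 against 8.08 in ESC2. Its summits lay 154 and 158 bp from the start of SPHK2 in NSC1 and NSC2 and 135 bp in ESC2, nearer than its own start. RPL7 had 33.6 and 22.3 in NSC1 and NSC2, of which the first is the highest of this class in that list, against 4.82 in ESC2. Over the class, percentiles spanned 1.71 to 98.3 in NSC1, 12 to 97.1 in NSC2 and 7.85 to 91.8 in ESC2, with medians of 76.7, 63.7 and 56.9, so the peaks of this class ran from near the threshold to near the top of each list.

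Among the small subunit genes of that class, RPS26, which lies near the mRNA exit, had 9.33 and 9.80 in NSC1 and NSC2 against 16.8 in ESC2. RPS7, needed for processing of the small subunit RNA, had 17.0 and 7.28 in the NSC libraries against 8.72 in ESC2. RPS14, whose loss underlies the anaemia of the 5q- syndrome, had 10.2 and 5.54 in NSC1 and NSC2 against 3.56 in ESC2. The percentile within the list was 75.3 and 78.6 in NSC1 and NSC2 and 91.8 in ESC2 for RPS26, and 78.2 and 54.0 in NSC1 and NSC2 and 40.1 in ESC2 for RPS14. RPS13 had 6.25 and 5.58 in NSC1 and NSC2 against 3.01 in ESC2, and RPSA, also known as a precursor of a laminin receptor, had 1.50 and 5.54 against 3.82 in ESC2. The NSC1 peak of RPSA was the weakest member peak of that list.

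The 25 NSC-only genes comprised 14 of the large and 11 of the small subunit. RPS28, a small protein near the mRNA exit, had a −log10 q of 22.9 and 18.7 in NSC1 and NSC2, with summits at -64 and -55 bp from the start; its peak also reached KANK3 and NDUFA7. RPS2, near the mRNA entry, had 25.2 and 14.3 in NSC1 and NSC2. RPS16 had 13.8 and 13.5, RPS25, needed for initiation at some viral internal entry sites, had 10.4 and 10.2, and RPS15 had 12.7 and 8.63 in NSC1 and NSC2. All 5 lay well above the threshold in both NSC libraries.

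Of the large subunit, RPL9 had 18.5 and 12 in NSC1 and NSC2, with summits at -116 and -137 bp from the start. Those summits lay 18 and 3 bp from the start of LIAS, nearer to it than to the start of RPL9. RPL35 had 13.6 and 12.4 in NSC1 and NSC2, with summits 58 and 51 bp from the start of ARPC5L, nearer than its own start. RPL23 had 12 and 9.14 in NSC1 and NSC2. RPL3, close to the site where peptide bonds form, had 14.9 in NSC1 and 7.30 in NSC2. Percentiles over the class spanned 3.00 to 96.1 in NSC1 and 6.40 to 93.4 in NSC2, so peaks close to the threshold are among them. With −log10 q of at least 5, 23 members were called in both NSC libraries alone (against 11.1% of all genes), but only 15 of them were among the 25; the other 8 came from the genes called in both NSC libraries and ESC2 in the full lists.

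By role, the stalk proteins that recruit elongation factors differed in ESC. RPLP0, the base of the stalk, had a −log10 q of 8.71 and 14.4 in NSC1 and NSC2 against 7.33 in ESC2. RPLP2 had 14.1 and 13.5 in NSC1 and NSC2 and no peak in ESC, and RPLP1 had 1.71 and 6.38 in NSC1 and NSC2 and no peak in ESC. The 5S particle proteins, which bind MDM2 when ribosome assembly is disturbed, split: RPL5 had 6.53 and 11.9 in NSC1 and NSC2 against 8.58 in ESC2, and RPL11 had no peak in any library. RPS3, at the mRNA entry, had a single peak, of 2.05 in NSC1.

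Of the 7 paralogs of ribosomal protein genes named for this description, 4 were called in NSC1 and 5 in NSC2, against 0 in ESC1 and 3 in ESC2. All genes were called at 43.5% and 38.7% in NSC1 and NSC2, against 6.80% and 23.2% in ESC1 and ESC2. Whether so few paralogs differ from these shares was not tested. RPL3L, a copy of RPL3 used in striated muscle, had a −log10 q of 11.2 and 13.3 in NSC1 and NSC2 against 7.93 in ESC2, but its peak overlaps the end window of MSRB1. RPL7L1 had 10.4 and 6.53 in NSC1 and NSC2 against 9.33 in ESC2, with summits in NSC2 and ESC2 79 and 87 bp from the start of PEX39. RPL22L1, a copy of RPL22, had 6.25 and 6.08 in NSC1 and NSC2 against 3.16 in ESC2. RPS27L, a target of p53, had 5.34 and 4.47 in NSC1 and NSC2 alone. RPL39L, a copy of RPL39 most used in testis, had 2.98 in NSC2 alone, and RPL10L and RPL26L1 were called in none.

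Of the 10 genes called in a single NSC library, RPS10 (7.39), RPL7A (5.39), RPS23 (4.13), RPS27 (3.55), RPL13 (3.16) and RPS3 had a peak in NSC1, and RPL14 (3.97), RPL39L, RPL19 (2.45) and RPL29 (2.20) in NSC2. Their median percentile was 30.4 in NSC1 and 15.8 in NSC2, low in both lists. RPL34, called in NSC1 at 7.0 and in ESC2 at 10.4, was the only member called in ESC2 but not in both NSC libraries.

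The 5 genes without a gene-end peak were RPL6, RPL10L, RPL11 and RPL26L1 of the large subunit and RPS21 of the small subunit. RPL10L, a testis copy of RPL10, lay 245269 and 245248 bp from the nearest peak in NSC1 and NSC2, and 1090799 and 520387 bp in ESC1 and ESC2. The nearest peak to RPL11 was 81394 and 92831 bp away in NSC1 and NSC2, against 20671 and 135091 bp in ESC1 and ESC2. For RPL6 it was 22397 and 22541 bp in NSC1 and NSC2, against 500188 and 107793 bp in ESC1 and ESC2. RPS21 had its nearest peak at 84110 and 84224 bp in NSC1 and NSC2, against 84801 and 18033 bp in ESC1 and ESC2. RPL26L1 differs from these: its RefSeq start lies 4635 bp inside the gene, and a peak within 1 kb of that start was found in NSC1 (−log10 q 9.84), NSC2 (5.20) and ESC2 (2.46), with summits 552, 599 and 987 bp past the start, and none in ESC1. The other 4 had no peak within 10 kb in any library, although RPL6, RPL11 and RPS21 are core ribosomal protein genes. The RefSeq start used for RPL6 also lies inside the gene, by 7393 bp, with no peak within 1 kb of it.

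Where the strand was known, peaks sat just upstream of the start, as they did at other called genes. Of the 63 members with a start site in the RefSeq promoter table, 55 and 51 were called in NSC1 and NSC2, against 9 and 30 in ESC1 and ESC2. The summit of the strongest peak lay within 1 kb of the start at 52 and 47 of these in NSC1 and NSC2, against 8 and 25 in ESC1 and ESC2. The median summit lay at -81 and -74 bp in NSC1 and NSC2, against -127 and -83.5 bp in ESC1 and ESC2. For all other called genes it lay at -63 and -71 bp in NSC1 and NSC2, against -143 and -114 bp in ESC1 and ESC2. Over all called members, measured from whichever gene end was nearer, the median distance was 116 and 111.5 bp in NSC1 and NSC2, against 140.0 and 150.5 bp in ESC1 and ESC2. Upstream summits numbered 42 and 39 in NSC1 and NSC2, against 7 and 21 in ESC1 and ESC2. Downstream summits numbered 10 and 8 in the NSC libraries against 1 and 4 in the ESC libraries. Other called genes had 4347 upstream and 1849 downstream summits in NSC1, and 4027 and 1515 in NSC2. In ESC1 they had 793 and 182, and in ESC2 2585 and 706.

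Within 250 bp of the start, the summits of the members were 76.4% and 74.5% in NSC1 and NSC2, against 66.7% and 63.3% in ESC1 and ESC2. Other called genes had 63.5% and 64.2% there in NSC1 and NSC2, against 53.6% and 57.9% in ESC1 and ESC2, lower in each library. All summits over 1 kb from the start were at large subunit genes: RPL4, RPL41, RPL38 and RPL7L1, and in ESC2 also RPL17 and RPL27A. RPL38, of which loss in mice alters translation of Hox mRNAs, had summits 369 and 356 bp past its 3′ end in NSC1 and NSC2.

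**Figure D4:**
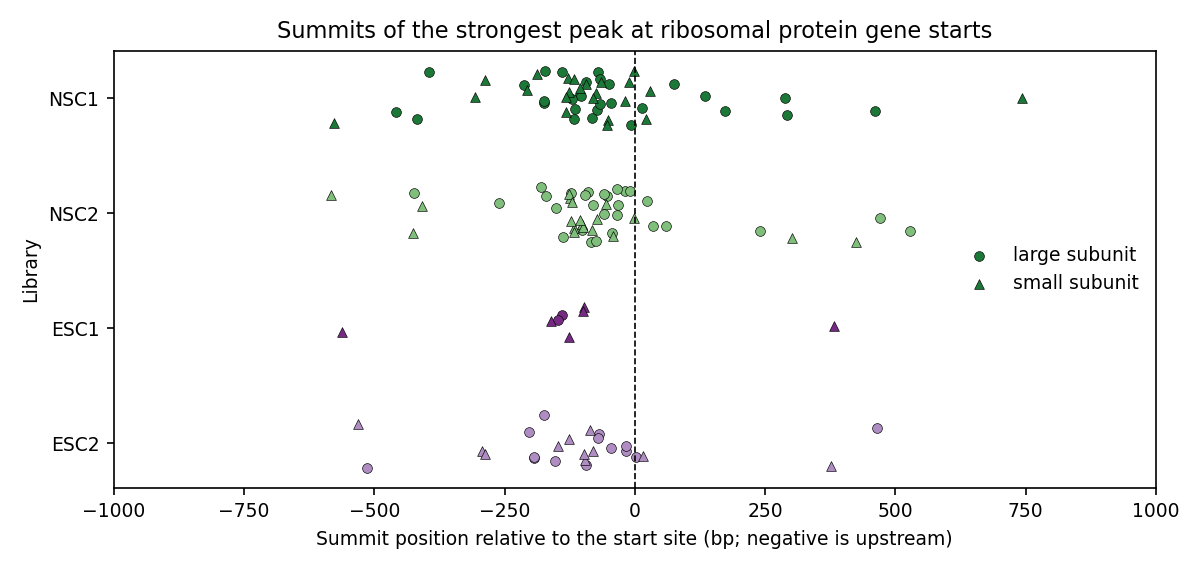
Position of the summit of the strongest peak relative to the start site (horizontal axis, bp, negative upstream) for members with a summit within 1 kb of the start, by library from NSC1 at the top to ESC2, with circles for large and triangles for small subunit genes. Upstream summits outnumber downstream ones in every library, by 42 to 10 in NSC1 and 21 to 4 in ESC2, as they do at other called genes.

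The strongest peaks of a member mostly overlapped between libraries. Of the 64 members called in both NSC libraries, the strongest peaks overlapped at 62 (96.9%), with a median distance of 30 bp between summits; other genes had 91.6% and 45 bp. Between NSC1 and ESC2 the peaks overlapped at 35 of 40 members (87.5%, median 58 bp), and between NSC2 and ESC2 at 34 of 39 (87.2%, 53 bp). For other genes these were 89.4% and 57 bp between NSC1 and ESC2, and 88.9% and 58 bp between NSC2 and ESC2, so across the cell types the members overlapped no more often than other genes. Overlapping peaks had summits within 100 bp of each other at 22 of the 40 members called in NSC1 and ESC2. For other genes this was 2420 of 3831, a larger share. All 11 members called in both ESC libraries had overlapping peaks, with a median of 31 bp, against 95.4% and 40.0 bp for other genes. Members with 2 separate gene-end peaks numbered 14 and 12 in NSC1 and NSC2, against 0 and 6 in ESC1 and ESC2. These counts run in the order of list length, and the share over all genes was not computed. The median width of member peaks was 483 and 410 bp in NSC1 and NSC2, against 374 and 308.5 bp in ESC1 and ESC2; for all called genes it was 452 and 396 bp in NSC1 and NSC2, against 287 and 336 bp in ESC1 and ESC2.

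Many members share their neighbourhood with other genes. At 25 of 80 members a gene-end peak in at least 1 library also overlapped the end window of another protein-coding gene, so the peak cannot be given to 1 gene. The 43 members whose windows no other protein-coding gene shares were called at 86.0% and 88.4% in NSC1 and NSC2, against 14.0% and 51.2% in ESC1 and ESC2, close to the values over all members. Small nucleolar RNA genes, whose products guide the chemical marking of ribosomal RNA, lay inside 27 of 80 members. They were inside 7 of 25 NSC-only members, 13 of 28 called in both NSC libraries and ESC2, 4 of 11 called in all 4 libraries and 0 of 5 without a gene-end peak. On chromosome 19 lay 12 members, among them RPS9 and RPS19. The genes were short, with a median length of 5025 bp and a range of 772 to 27723 bp.

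The promoter sequence that RefSeq holds for 63 members was marked by the TCT initiator. It was found within 20 bases of the start in 38 of 63 member promoters (60.3%), against 5.17% of 15101 promoters of all autosomal protein-coding genes. In the window from 250 bases before to 50 bases after the start, the ETS motif CCGGAAG was in 22 (34.9%, against 14.3%) and the palindromic CG element CTCGCGA in 12 (19%, against 3.24%). The YY1 motif AAGATGG was in 9 (14.3%, against 6.28%). Matches of GGGCGG (SP1) were in 33 (52.4%, against 58.7%), CCAAT in 22 (34.9%, against 36.1%), TATAAA in 7 (11.1%, against 9.83%) and the E-box CACGTG in 4 (6.35%, against 8.71%). All but the initiator were searched on both strands. No motif contains another; the palindromic CG element overlaps its own reverse complement, and each promoter was counted once. The median GC content of the member promoters was 59.3%, against 62.7% over all promoters.

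**Figure D5:**
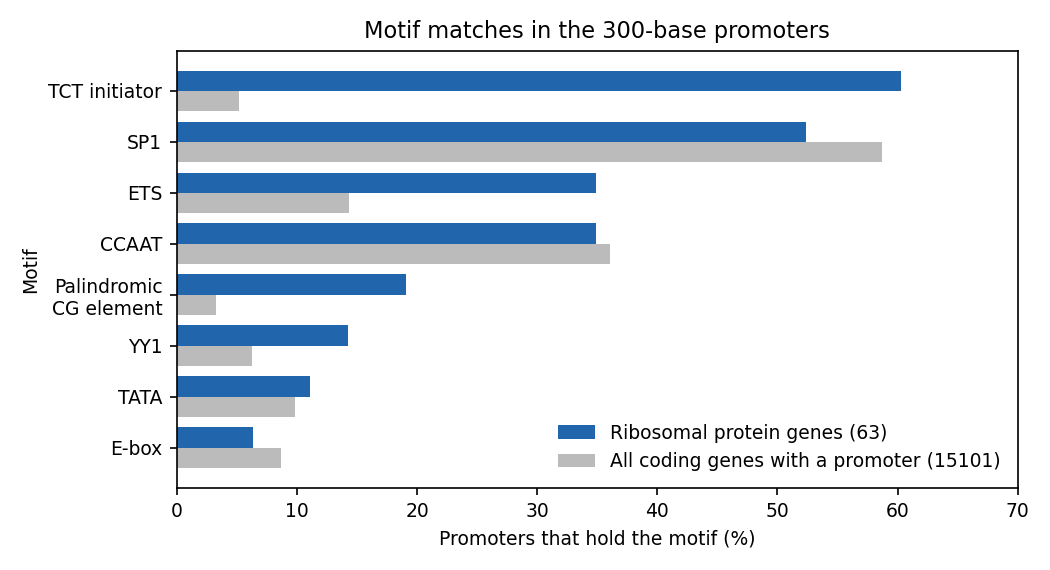
Percent of promoters that hold each motif (horizontal axis), for the 63 ribosomal protein genes with a promoter sequence (blue) above all 15101 autosomal protein-coding genes with one (grey). The TCT initiator shows the widest gap, 60.3% against 5.17%, and SP1, CCAAT, TATA and E-box matches are about as common in both.

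The motifs were set beside the calls as a description. The TCT initiator was in 8 of 9 members called in all 4 libraries, 13 of 20 called in both NSC libraries and ESC2, 10 of 19 NSC-only members, 6 of 9 called in 1 NSC library and 1 of 5 without a gene-end peak. The last 5 include RPL26L1 and RPL6, whose starts lie 4635 and 7393 bp inside the gene and whose promoters held none of the motifs searched. RPL26L1 has a peak near its inner start, and RPL6 has none. The 5 also include the testis copy RPL10L, so they are a mixed set. Over all genes it went with little difference in calls: genes with it were called at 46.8% (NSC1), 40.8% (NSC2), 9.23% (ESC1) and 28.5% (ESC2), and genes without it at 46.2% (NSC1), 41.2% (NSC2), 7.21% (ESC1) and 24.8% (ESC2). The palindromic CG element was in 4 of 9 members called in all 4 libraries, as in RPS19 and RPL26 above, and in 0 of 5 without a gene-end peak. Over all genes, those with it were called at 78.3% (NSC1), 72% (NSC2), 18.6% (ESC1) and 47.6% (ESC2), and those without it at 45.2% (NSC1), 40.2% (NSC2), 6.94% (ESC1) and 24.3% (ESC2), lower in each library.

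Among the members themselves, those with the palindromic CG element were called at 12 and 11 of 12 in NSC1 and NSC2, against 4 and 8 of 12 in ESC1 and ESC2. Members without it were called at 43 and 40 of 51 in NSC1 and NSC2, against 5 and 22 of 51 in ESC1 and ESC2. Over all genes, those with the ETS motif were called at 69.4% (NSC1), 60.3% (NSC2), 10.5% (ESC1) and 37.4% (ESC2), and those without it at 42.4% (NSC1), 38% (NSC2), 6.79% (ESC1) and 22.9% (ESC2). Among the members this difference was not seen in the same way: those with the ETS motif were called at 18 of 22 in each NSC library, against 4 and 10 of 22 in ESC1 and ESC2, and those without it at 37 and 33 of 41 in NSC1 and NSC2, against 5 and 20 of 41 in ESC1 and ESC2. In NSC1 and ESC2 the share was lower with the motif. RPS21, with an ETS match and a TCT initiator in the sequence above, and RPL11, with an ETS match, had no peak in any library. Over all genes, matches of SP1, YY1, CCAAT and the E-box also went with more calls in every library, and TATA matches with fewer. In NSC1, the shares with and without the match were 56.3% and 32.0% for SP1, and 61.7% and 45.2% for YY1. They were 52.5% and 42.8% for CCAAT, 55.4% and 45.4% for the E-box, and 25.5% and 48.5% for TATA. The part of other promoter features in these shares was not tested. Members for which no promoter sequence was used include RPL23, RPL23A, RPL30, RPL37, RPL39L, RPL3L, RPL5, RPL7, RPL8, RPS15A, RPS2 and RPS20.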

How the data were processed

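BAF45D CUT&Tag was analysed in 2 NSC and 2 ESC libraries. The submitters' processing notes name FastQC, Trimmomatic, BWA 0.7.12 and the build hg38. Each library's peaks come from MACS2 2.1.0.20150420 run without a control at a q threshold of 0.05, per the file headers. The deposited pileup is a signal of 1 library, the deposited −log10 p and q values compare it with its local background, and the fold is the authors' ratio of pileup to that background. Strengths were used within 1 list only. A library with an untargeted antibody was not analysed here.

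Entries with the same start and end were joined, keeping the strongest −log10 q, on chromosomes 1 to 22. An overlap of at least 1 bp with the window of 1000 bp around either end of a gene (RefSeq, GRCh38.p14) called the gene. Strand and start came from the RefSeq promoter table (63 of 80 members; 60 of these starts equal a gene end). Genes were named by mean percentile, up to 5 per class and subunit, plus every member of a class of 5 or fewer and a set list of roles and paralogs; RPL17, RPL27A, RPL29, RPL38 and RPS15A were named after their values were seen. Some members count in the totals but are not reported here by name. Members, lists and motifs were chosen with earlier results of these data known. Tests over libraries were exact and two-sided; the overlap code was tested on simulated data. Alternatives were other windows, summits, stricter peaks, equal list length, unshared windows and libraries left out. Python 3.11.15, pandas 2.3.3, numpy 2.4.6, scipy 1.17.1 and matplotlib 3.10.9 were used.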

Additional observations from a re-analysis of the deposited data

How the results depend on the processing

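The difference between NSC and ESC kept its direction under every alternative run, from 6.25 percentage points at equal list length to 73.1 points without ESC2. At equal list length 28.8% and 27.5% of members were called in NSC1 and NSC2 against 30% in ESC2. Over all genes these were 11.4% and 10.9% against 13.2%. NSC-only members made 8.75% (against 2.19% of all genes) and those in both NSC libraries and ESC2 3.75% (against 2.27%). ESC-only members made 2.5%, which was 2 genes (against 1.27%), and members without a peak 56.3% (against 80.6%). That setting tests fewer peaks by construction. With −log10 q of at least 5, ESC1 called 7.50% (against 3.36% of all genes) and ESC2 31.3% (against 15.4%). Both NSC libraries with ESC2 called 20.0% (against 8.72%), all 4 libraries 7.50% (against 3.06%), and 17.5% had no peak (against 63.8%). Median percentiles then were 82.0 in NSC2 against 81.0 in ESC1 and 87.1 in ESC2, and median distances from the gene end 120.0 and 106 bp in NSC1 and NSC2 against 150.5 and 174 bp in ESC1 and ESC2. Median distances also moved to 118.5 bp in NSC2 at 2.5 kb and to 120.5 bp in ESC2 at 500 bp; the cause was not tested. Leaving out 1 library gave a difference of 36.9 to 73.1 points, NSC-only members of 31.3% to 66.3%, members called in every library of 13.8% to 48.8% and members without a peak of 6.25% to 13.8%. The shares over all genes with a library left out were not computed. A window at the start site alone was chosen after seeing the data. It called 87.3% and 81.0% of 63 members in NSC1 and NSC2 against 12.7% and 46.0% in ESC1 and ESC2. The same window called 45.1% and 40.2% of 15101 genes in NSC1 and NSC2 against 7.03% and 24.0% in ESC1 and ESC2.

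The labels share replicate numbers without saying that they mark a shared culture. With the replicate block, NSC1 minus ESC1 was 75 points and NSC2 minus ESC2 was 35 points, a mean of 55.0 points with an exact p of 0.5, the smallest that 2 pairs allow. Peak lists hold no counts where no peak was called, so no floor of binding is given. The part of depth in the absent calls was not tested.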

Other observations

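The 4 ribosomal protein genes on the X chromosome stood outside the autosomal rule. Of these, 3 were called in each NSC library, against 1 in ESC1 and 2 in ESC2. RPL36A had a −log10 q of 4.14 and 8.45 in NSC1 and NSC2, against 5.01 and 7.42 in ESC1 and ESC2. RPL39 had 9.36 and 6.88 in NSC1 and NSC2, against 2.60 in ESC2 and no peak in ESC1. RPL10, the copy from which RPL10L derives, had 3.45 and 8.59 in NSC1 and NSC2, and RPS4X had no peak in any library.

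Processed copies of ribosomal protein genes are common in the genome, and few had a peak. Of 1914 ribosomal protein pseudogenes, 33 and 21 were called at their ends in NSC1 and NSC2, against 1 and 21 in ESC1 and ESC2. These are 1.72% and 1.10% in NSC1 and NSC2, against 0.0522% and 1.10% in ESC1 and ESC2. Other pseudogenes were called at 2.73% and 2.31% in NSC1 and NSC2, against 0.948% and 2.32% in ESC1 and ESC2, so the ribosomal protein copies lay below them in every library.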
